A study of Mus musculus with 12 samples.

Results

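The insulin-like growth factor (IGF) system was examined here in oligodendrocytes, the myelin-forming cells of the CNS, through the 10 genes Igf1, Igf2, Igf1r, Igf2r, Igfbp2, Igfbp3, Igfbp4, Igfbp5, Igfbp6 and Igfbp7. The genes were chosen by symbol as the ligands, receptors and binding proteins of the system, 10 of the 55376 gene symbols in the count table, and each symbol was found once. RNA-Seq counts were available for 12 samples, 4 of each of 3 genotypes, all on the C57BL/6 strain and all taken at postnatal day 40 (P40). WT mice were labelled wild-type, and the label does not say whether any carried floxed alleles or Cre alone. Cnp-Cre Jab1fl/fl mice carried Cre under the Cnp promoter and floxed alleles of Jab1 (gene symbol Cops5), a subunit of the COP9 signalosome. Double mutants, Cnp-Cre Jab1fl/fl p21CIP1-/-, carried the same Cre and floxed alleles and in addition lacked the cell cycle inhibitor p21CIP1 (gene symbol Cdkn1a) in every cell of the body, so that Cnp-Cre and the loss of Jab1 are common to both mutant genotypes. Cnp-Cre is active from the late precursor stage of oligodendrocytes onward and also in Schwann cells. No sample group carried the p21CIP1 deletion alone. The authors list the p21CIP1 knockout line with another strain of origin, followed by backcrosses. Whether sequence of that strain remained in the double mutants was not tested. Each sample pooled the cells of 2 brains, sorted as live cells that were positive for the oligodendrocyte surface lipid O1 and negative for the leukocyte marker CD45.

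IGF1 and IGF2 are secreted ligands that act through the tyrosine kinase receptor IGF1R, which signals through insulin receptor substrates to the PI3K-AKT-mTOR and RAS-MAPK arms. IGF1 is known as a survival and myelination factor for oligodendrocytes. The IGF2 receptor has no kinase, clears IGF2 from the cell surface and sorts lysosomal enzymes, and the IGF-binding proteins (IGFBPs) hold the ligands outside the cell and either prolong their half-life or keep them from the receptor.

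In Cnp-Cre Jab1fl/fl cells the transcripts of 3 members were higher than in WT, namely Igfbp7, Igf1r and Igfbp2, and no member was lower, where 5.19% of all genes were called higher and 2.46% lower. In 6 of the 8 fits that left out 1 sample, only Igfbp7 remained called. Igfbp7 was the member with the smallest p-value and rose about 6.14-fold by the ratio of group means. In double mutants the same 3 genes had levels above WT on average, but no member passed the test, and no member passed it between the 2 mutant genotypes.

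The 3 genes that were called are shown first by sequence, because they were the members that passed the test. For each, the 150 bases before the RefSeq start site are given (RefSeq, build GRCm38.p6), 5′ to 3′ on the strand of the gene, with capitals marking exact matches to the GC box GGGCGG on either strand (CCGCCC when read on the gene strand) and to the E-box CACGTG. The stretch of Igfbp7 lies at chr5:77408046-77408195 on the minus strand, that of Igf1r at chr7:67952107-67952256 on the plus strand and that of Igfbp2 at chr1:72824330-72824479 on the plus strand.
Igfbp7: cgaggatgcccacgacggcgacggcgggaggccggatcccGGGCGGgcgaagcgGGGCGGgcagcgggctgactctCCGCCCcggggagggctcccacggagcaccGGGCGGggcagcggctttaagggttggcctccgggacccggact
Igf1r: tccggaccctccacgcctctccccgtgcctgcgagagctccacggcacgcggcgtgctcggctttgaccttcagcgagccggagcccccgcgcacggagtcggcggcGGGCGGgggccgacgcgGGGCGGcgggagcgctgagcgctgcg
Igfbp2: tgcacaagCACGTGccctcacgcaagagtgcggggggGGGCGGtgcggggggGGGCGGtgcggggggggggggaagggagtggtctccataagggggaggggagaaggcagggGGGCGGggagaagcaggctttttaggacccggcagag

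All 10 members were matched to a RefSeq promoter, a window of 250 bases before and 50 after the start site, and for genes with several the one nearest to the GENCODE start was taken. The RefSeq start of Igf1r lies 570 bases from its GENCODE start. The GC box, the sequence bound by SP1-type factors, occurred 4 times in the window of Igfbp7, 3 times in that of Igfbp2 and 2 times in that of Igf1r, and at least 1 match was present in 35.7% of 32851 promoters of the same length. Among the other members, Igf2r held 3 GC boxes and the remaining 6 held 0. The Igfbp2 window also held 1 E-box, a motif found in 7.15% of promoters and present 2 times in Igf2r. None of the 3 windows held TATAAA (13.6% of promoters) or CCAAT (37.4% of promoters), each searched on both strands, and no 2 matches in them overlapped. The windows were rich in CG dinucleotides, with 48 in Igf1r, 33 in Igfbp7 and 18 in Igfbp2, as compared with a median of 7 over all promoters. For Igfbp2, 70.3% of promoters held fewer. Members that were not called varied in this respect, with 37 in Igfbp3, 34 in Igf2r, 27 in Igfbp4, 10 in Igfbp5, 8 in Igfbp6, 6 in Igf1 and 2 in Igf2. These matches describe the letters of the windows only.

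Counts were scaled to a common library size (CPM) with TMM factors, which correct for differences in library composition, and 1 CPM corresponded to 67.9 to 155 counts. Differences were tested with edgeR's quasi-likelihood test over 17716 genes, and a gene is called where its Benjamini-Hochberg adjusted p is below 0.05. Of the 10 members, 9 met the filter on low counts (1 CPM or more in 4 or more of the libraries) and were tested, and Igf2 did not. Values per sample are given in the order of the replicate numbers, with 1, 3, 5 and 6 for WT, 1, 2, 3 and 4 for Cnp-Cre Jab1fl/fl and finally 1, 2, 3 and 5 for double mutants. Errors of levels are SD with n = 4, and errors of log2 fold changes are SE.

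Before the members, the libraries were checked. Total counts ran from 61485556 to 153495112. Cops5 had 103 ± 39.7 CPM in WT, 66.9 ± 18.0 CPM in Cnp-Cre Jab1fl/fl and 58.6 ± 21.5 CPM in double mutants, a difference that did not pass the test in either mutant (edgeR adjusted p = 0.349 and 0.424). Cdkn1a was at 41.6 ± 31.4 CPM in WT, 452 ± 124 CPM in Cnp-Cre Jab1fl/fl and 88.4 ± 17.9 CPM in double mutants. For both genes, counts per gene do not show from which exons the reads came. By quantitative PCR of sorted O1+ cells, the authors found Cops5 significantly reduced in Cnp-Cre Jab1fl/fl and Cdkn1a undetectable in double mutants. Summed over 11 mature oligodendrocyte markers, the level ran from 45742 to 106607 CPM in WT, from 9045 to 35428 CPM in Cnp-Cre Jab1fl/fl and from 16950 to 53038 CPM in double mutants, so that these markers were present in every library, and 7 of the 11 were called lower in Cnp-Cre Jab1fl/fl than in WT. Cnp, whose promoter drives Cre in both mutants, was among these 7 (edgeR adjusted p = 0.0105). Its mean was 7522 CPM in WT, 781 CPM in Cnp-Cre Jab1fl/fl and 1505 CPM in double mutants. Any effect of the Cre allele itself on Cnp was not tested. Markers of other cell types differed as well. All 14 microglia markers were called higher in Cnp-Cre Jab1fl/fl than in WT, as were 5 of 10 endothelial, 5 of 9 tested pericyte and smooth muscle and 3 of 8 choroid plexus markers, while 0 of 10 astrocyte markers were called. Of oligodendrocyte precursor markers 1 of 6 was called higher, and of fibroblast markers 0 of 6. Over all genes, 5.19% were called higher and 2.46% lower. In double mutants as compared with WT, 0 markers of any of these lists were called, beside 0.192% of all genes. Sums of the lists used below are given beside the members. In such bulk libraries a change in the number of cells of one type and a change in RNA per cell cannot be told apart.

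Ligand transcripts were scarce in WT. Igf1 (chr10:87858265-87937042, plus strand) had 0.02, 0.83, 0.06 and 1.90 CPM in WT, 5.36, 5.01, 10.8 and 20.1 CPM in Cnp-Cre Jab1fl/fl and 0, 0.74, 42.0 and 6.93 CPM in double mutants. Every Cnp-Cre Jab1fl/fl sample was above every WT sample, whereas the double mutants ranged from 0 counts in replicate 1, where 3 counts would equal 0.032 CPM, to the highest value of all 12 samples in replicate 3. The log2 fold change as compared with WT was 3.88 ± 1.25 in Cnp-Cre Jab1fl/fl and did not pass the test (edgeR adjusted p = 0.0875), although DESeq2 and limma-voom called it (adjusted p = 0.00278 and 0.0264). In double mutants the log2 fold change was 4.15 ± 1.98 (edgeR adjusted p = 0.432), and without replicate 3 it was 1.87 (adjusted p = 0.789).

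Igf1 is also made by microglia, and markers of microglia varied between the same samples. The 14 microglia markers summed to 93.5 to 267 CPM in WT, 1054 to 2650 CPM in Cnp-Cre Jab1fl/fl and 389 to 17478 CPM in double mutants, although the sort excluded CD45+ cells. None of the 14 was at 0 in all samples of a genotype. On reanalysis of sorted cells of all 3 genotypes, the authors saw no overt CD45+ contamination. They could not fully exclude that a few other cells were present. The double-mutant replicate 3 held the top value of both Igf1 and the microglia sum, and the double-mutant replicate 1 held the lowest value of the mutant samples for both. Per 100 CPM of the microglia sum, Igf1 was 0.0109 to 0.900 CPM in WT, 0.210 to 0.760 CPM in Cnp-Cre Jab1fl/fl and 0 to 0.353 CPM in double mutants, so that the 3 ranges overlapped. This ratio, and the like ratios given for other members, was chosen after the values were seen. The part of microglial RNA in the Igf1 difference was not tested.

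Igf2 (chr7:142650766-142666816, minus strand) was measured at 0.09, 0.10, 0.17 and 0.23 CPM in WT, 1.03, 0.67, 1.34 and 0.91 CPM in Cnp-Cre Jab1fl/fl and 0.22, 1.15, 0.98 and 0.63 CPM in double mutants. These values rest on 10 to 145 counts per sample. The Cnp-Cre Jab1fl/fl samples lay above all WT samples and the double mutants overlapped with WT by replicate 1. Igf2 fell under the filter on low counts, and without the filter its log2 fold change in Cnp-Cre Jab1fl/fl was 2.62 ± 1.22 (edgeR adjusted p = 0.255). Of its 5249 exonic bases, 3596 are shared on the same strand with the gene model Gm49394, which had 0 counts in every sample. How reads in the shared bases were counted is not given in the sources used here. If they were left out, the levels of Igf2 are too low.

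**Figure D1:**
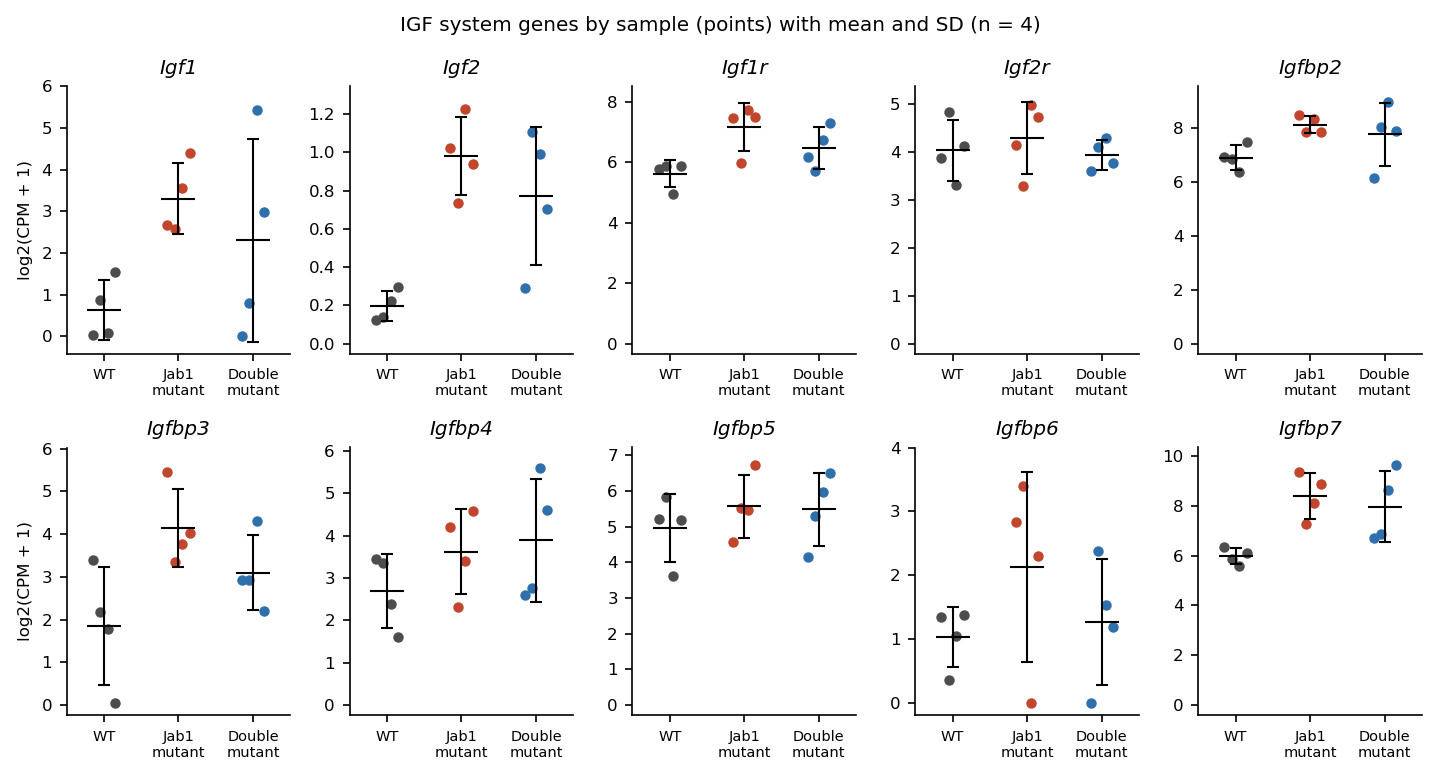
Level of each member as log2(CPM + 1) on the vertical axis in the 3 genotypes (Jab1 mutant is Cnp-Cre Jab1fl/fl), with 1 point per sample and horizontal lines and bars for the mean and SD of 4 samples. The 4 Cnp-Cre Jab1fl/fl samples sit above all WT samples for Igf1, Igf2, Igf1r, Igfbp2 and Igfbp7, and the double mutants do so only for Igfbp7.

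Of the receptors, Igf1r changed and Igf2r did not pass the test. Igf1r (chr7:67952827-68233668, plus strand) was measured at 53.6, 58.3, 29.8 and 58.0 CPM in WT, 176, 62.3, 212 and 177 CPM in Cnp-Cre Jab1fl/fl and 70.5, 51.0, 104 and 158 CPM in double mutants. All Cnp-Cre Jab1fl/fl samples were above WT, replicate 2 by little, and the double mutants overlapped with both. The mean rose from 49.9 ± 13.6 CPM to 157 ± 65.2 CPM, a log2 fold change of 1.65 ± 0.40 (edgeR adjusted p = 0.0294).

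The call of Igf1r was lost with no filter on low counts (edgeR adjusted p = 0.0583). With the filter, it was kept when replicate 2 of Cnp-Cre Jab1fl/fl was left out (edgeR adjusted p = 0.00512) and was lost when any other single sample was left out, with adjusted p between 0.0607 and 0.0836. The highest of these came without WT replicate 5, the WT sample with the lowest level, where the log2 fold change was 1.47. In double mutants Igf1r had a log2 fold change of 0.93 ± 0.39 as compared with WT (edgeR adjusted p = 0.355) and of -0.71 ± 0.45 as compared with Cnp-Cre Jab1fl/fl (adjusted p = 0.996, 95% confidence interval -1.70 to 0.28).

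Markers of endothelial cells differed between the same samples. The 10 endothelial markers, of which none was at 0 in all samples of a genotype, summed to 459 to 1027 CPM in WT, 919 to 5540 CPM in Cnp-Cre Jab1fl/fl and 767 to 5304 CPM in double mutants. The Cnp-Cre Jab1fl/fl replicate 2 had both the lowest endothelial sum and the lowest Igf1r level of its genotype, and WT replicate 5 had both the lowest sum and the lowest level of all samples. Per 100 CPM of the endothelial sum, Igf1r was 5.22 to 6.50 CPM in WT, 3.18 to 7.75 CPM in Cnp-Cre Jab1fl/fl and 2.88 to 9.20 CPM in double mutants. The ratio in WT thus lay inside the range of both mutants. Slco1c1 was the largest of these markers in WT, with means of 326 CPM in WT, 520 CPM in Cnp-Cre Jab1fl/fl and 481 CPM in double mutants. The next largest in WT, Ly6c1, had 147, 693 and 719 CPM. The ratio thus depends on which markers are summed, and it was not computed without Slco1c1. The part of endothelial RNA was not tested.

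Igf2r (chr17:12682406-12769664, minus strand), which also carries lysosomal enzymes, was at 13.5, 27.5, 8.83 and 16.3 CPM in WT, 16.6, 8.79, 30.5 and 25.2 CPM in Cnp-Cre Jab1fl/fl and 11.1, 16.02, 18.5 and 12.5 CPM in double mutants. The 3 groups overlapped. The log2 fold change as compared with WT was 0.29 ± 0.48 in Cnp-Cre Jab1fl/fl (95% confidence interval -0.76 to 1.35, edgeR adjusted p = 0.779) and -0.20 ± 0.43 in double mutants (-1.14 to 0.75, adjusted p = 0.893).

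Among the binding proteins, Igfbp7 had the smallest p-value. IGFBP7 binds IGFs with low affinity as compared with the other family members and is known as a secreted protein of blood vessel walls and of senescent cells. Igfbp7 (chr5:77349240-77408041, minus strand) was at 80.2, 57.2, 47.6 and 67.7 CPM in WT, 656, 151, 274 and 470 CPM in Cnp-Cre Jab1fl/fl and 103, 116, 401 and 799 CPM in double mutants. Every sample of either mutant genotype was above every WT sample, and within both mutants the highest sample was more than 4 times the lowest (4.34 in Cnp-Cre Jab1fl/fl and 7.79 in double mutants).

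The mean of Igfbp7 rose from 63.2 ± 14.0 CPM in WT to 388 ± 222 CPM in Cnp-Cre Jab1fl/fl, a log2 fold change of 2.62 ± 0.44 (edgeR adjusted p = 0.00682). The call held without any one of the 8 samples, with log2 fold changes of 2.24 to 2.88 and adjusted p of 0.00183 to 0.0272. In double mutants the mean was 355 ± 327 CPM and the log2 fold change 2.48 ± 0.62, which did not pass the edgeR test (adjusted p = 0.144) and did with DESeq2 (adjusted p = 0.000648). Of the 8 fits that left out 1 sample, only the one without double-mutant replicate 1 gave a call, at 2.79 with an edgeR adjusted p of 0.0422, and without double-mutant replicate 5 the log2 fold change was 1.70 (adjusted p = 0.279). Between the mutant genotypes the log2 fold change was -0.13 with a 95% confidence interval of -1.61 to 1.35 (edgeR adjusted p = 1), an interval that spans changes of more than 1 in either direction.

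Markers of vascular cells differed alongside Igfbp7, namely the endothelial sum given above and the 10 pericyte and smooth muscle markers, which summed to 282 to 485 CPM in WT, 1015 to 1768 CPM in Cnp-Cre Jab1fl/fl and 300 to 1711 CPM in double mutants, with none of the 10 at 0 in all samples of a genotype. Per 100 CPM of the endothelial sum, Igfbp7 was 6.26 to 10.4 CPM in WT, 10.02 to 16.5 CPM in Cnp-Cre Jab1fl/fl and 10.5 to 15.1 CPM in double mutants. The ratio of the double mutants lay above that of WT, and Cnp-Cre Jab1fl/fl overlapped with WT at the edge. Slco1c1, the largest endothelial marker in WT, differed less between genotypes than Ly6c1, as given above. This order of the ratios therefore holds only for the sum of these 10 markers, and the ratio without Slco1c1 was not computed. Per 100 CPM of the pericyte and smooth muscle sum it was 11.8 to 27.5 CPM in WT, 14.9 to 56.4 CPM in Cnp-Cre Jab1fl/fl and 15.1 to 46.7 CPM in double mutants. The part of vascular RNA in the Igfbp7 difference was not tested. Exons of Igfbp7 and of its opposite-strand neighbor Polr2b share 85 bases, and Polr2b had a log2 fold change of -0.34 ± 0.36 (edgeR adjusted p = 0.637).

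Igfbp2 (chr1:72824503-72852474, plus strand) encodes a carrier that is abundant in the developing brain and in cerebrospinal fluid. It was at 121, 116, 81.4 and 178 CPM in WT, 360, 230, 325 and 234 CPM in Cnp-Cre Jab1fl/fl and 70.7, 263, 504 and 241 CPM in double mutants. All Cnp-Cre Jab1fl/fl samples were above WT, while the double mutants included the lowest and the highest sample of all. The mean rose from 124 ± 39.9 CPM to 287 ± 65.6 CPM, a log2 fold change of 1.21 ± 0.32 (edgeR adjusted p = 0.0414).

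This call was kept without WT replicate 6 or without Cnp-Cre Jab1fl/fl replicate 2 (edgeR adjusted p = 0.0429 and 0.0326) and lost without any of the other 6 samples (adjusted p between 0.0694 and 0.112), and it was also lost with no filter and with all 12 samples in 1 fit (adjusted p = 0.0937 and 0.144). In double mutants the log2 fold change of Igfbp2 as compared with WT was 1.11 ± 0.51 (edgeR adjusted p = 0.408). As compared with Cnp-Cre Jab1fl/fl it was -0.09, with a 95% confidence interval of -1.17 to 0.99.

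Astrocytes are a known source of Igfbp2. The 10 astrocyte markers summed to 5532 to 13346 CPM in WT, 3533 to 8650 CPM in Cnp-Cre Jab1fl/fl and 4023 to 11121 CPM in double mutants. Per 100 CPM of the astrocyte sum, Igfbp2 was 0.868 to 1.84 CPM in WT and 3.27 to 6.62 CPM in Cnp-Cre Jab1fl/fl, without overlap, and 1.76 to 4.53 CPM in double mutants. The 8 choroid plexus markers, mostly Ttr, summed to 293 to 4062 CPM in WT, 6458 to 24455 CPM in Cnp-Cre Jab1fl/fl and 5391 to 23816 CPM in double mutants. Neither list had a marker at 0 in all samples of a genotype. Per 100 CPM of the choroid plexus sum Igfbp2 was higher in WT, at 3.96 to 27.8 CPM, than in Cnp-Cre Jab1fl/fl, at 1.33 to 3.56 CPM, or in double mutants, at 1.31 to 3.61 CPM. The double-mutant replicate 3, with the highest Igfbp2 level, also had the highest microglia sum (17478 CPM). The double-mutant replicate 1 had the lowest value of the mutant samples for both. Within Cnp-Cre Jab1fl/fl, replicate 4 had the highest microglia sum (2650 CPM) but not the highest Igfbp2 level. The parts of astrocyte, choroid plexus and microglial RNA in the Igfbp2 difference were not tested.

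**Figure D2:**
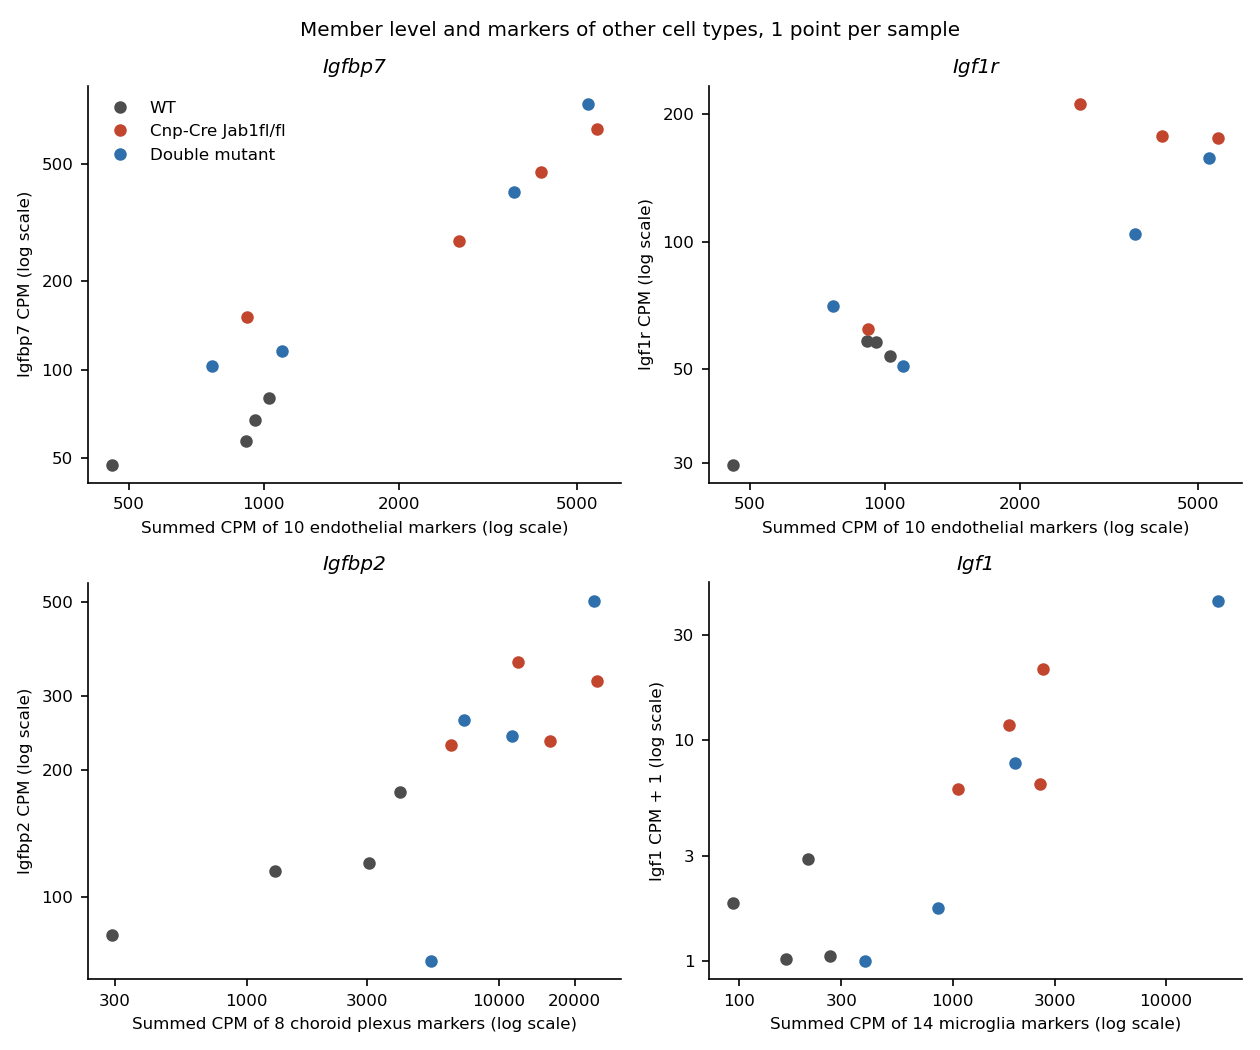
Level of 4 members in CPM (vertical axes, for Igf1 CPM + 1) against the summed CPM of marker genes of another cell type (horizontal axes), both on log scales, with 1 point for each of the 12 samples colored by genotype. Igfbp7 and Igf1r are lowest in WT replicate 5, which also has the lowest endothelial sum (459 CPM), and the double mutant with 17478 CPM of microglia markers has the highest Igf1 level.

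The remaining 4 binding proteins did not pass the test in any comparison. Igfbp3 (chr11:7206086-7213923, minus strand), the main carrier of IGFs in blood, was at 9.52, 3.50, 2.46 and 0.04 CPM in WT, 43.0, 9.26, 12.6 and 15.3 CPM in Cnp-Cre Jab1fl/fl and 6.58, 6.62, 18.9 and 3.64 CPM in double mutants. WT replicate 6 held 4 counts of it and WT replicate 1 overlapped with the lowest Cnp-Cre Jab1fl/fl sample. Its log2 fold change in Cnp-Cre Jab1fl/fl was 2.37 ± 1.05 (edgeR adjusted p = 0.206), and it was 3.32 without WT replicate 1 and 1.68 without Cnp-Cre Jab1fl/fl replicate 1. Igfbp4 (chr11:99041244-99054392, plus strand), whose protein is cleaved by the protease PAPPA to release IGF, was at 9.94, 9.16, 4.26 and 2.03 CPM in WT, 17.3, 4.00, 9.64 and 22.8 CPM in Cnp-Cre Jab1fl/fl and 5.08, 5.82, 47.2 and 23.3 CPM in double mutants. The groups overlapped, and its log2 fold change as compared with WT was 1.08 ± 0.67 in Cnp-Cre Jab1fl/fl and 1.68 ± 0.78 in double mutants (edgeR adjusted p = 0.384 and 0.422). Without double-mutant replicate 3, the library with 17478 CPM of microglia markers, the latter was 0.84 (adjusted p = 0.754).

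Igfbp5 (chr1:72857932-72874884, minus strand) lies next to Igfbp2 and is transcribed toward it. Its protein binds the extracellular matrix as well as IGFs. Igfbp5 was at 35.8, 56.5, 11.4 and 35.3 CPM in WT, 22.9, 45.4, 42.9 and 104 CPM in Cnp-Cre Jab1fl/fl and 16.8, 38.4, 61.8 and 90.6 CPM in double mutants. The groups overlapped, and the log2 fold change in Cnp-Cre Jab1fl/fl was 0.63 ± 0.52 (edgeR adjusted p = 0.531), as compared with 1.21 for its neighbor Igfbp2. Igfbp6 (chr15:102144362-102149511, plus strand), a carrier that prefers IGF2, was at 1.56, 0.29, 1.08 and 1.59 CPM in WT, 6.11, 9.50, 0 and 3.93 CPM in Cnp-Cre Jab1fl/fl and 0, 4.2, 1.91 and 1.28 CPM in double mutants. The 2 samples at 0 held no counts, where 3 counts would equal 0.0442 and 0.032 CPM, and the log2 fold change of 2.11 ± 1.38 in Cnp-Cre Jab1fl/fl (edgeR adjusted p = 0.413) turned to -0.62 under limma-voom with sample weights.

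As a group, 3 of the 9 tested members were called higher in Cnp-Cre Jab1fl/fl than in WT and 0 lower, where 5.19% of all genes were called higher and 2.46% lower by edgeR. At an unadjusted p under 0.05, 5 of 9 were higher, beside 13.2% of all genes. DESeq2 called 4 of 9 higher, beside 9.61% of all genes. For 4 of 9 the samples of the 2 groups did not overlap with the mutant above, beside 9.9% of all genes. Igf1 is among the members of these last 3 counts, and since it reached 1 CPM in only 1 WT sample and passed the filter through the mutant samples, it had to differ there and lends the counts no support. All 9 log2 fold changes were above 0, with a median of 1.65 as compared with 0.02 over all genes tested. Igf1 is among these 9 as well and for the same reason lends them no support. Igfbp6, at a mean of 1.13 CPM in WT, is among them too. It also passed the filter only together with mutant samples and lends them no support. The members were also chosen with earlier results of these data known, so these values are a description only. The count of 3 was 1 when any of WT replicates 1, 3 and 5 or Cnp-Cre Jab1fl/fl replicates 1, 3 and 4 was left out, and Igfbp7 was called in each of these fits.

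In double mutants as compared with WT, 0 of 9 members were called by edgeR, beside 0.192% of all genes in either direction, and limma-voom also called 0. At an unadjusted p under 0.05, 2 of 9 (Igfbp7 and Igf1r) were higher, beside 7.82% of all genes. DESeq2 called 1 of 9 (Igfbp7) higher, beside 3.8% of all genes, and the samples of 1 of 9 (Igfbp7) did not overlap, beside 4.52% of all genes. The median log2 fold change was 1.11, as compared with 0.00 over all genes, and 8 of 9 were above 0. Igf1 and Igfbp6, which passed the filter mostly through mutant samples, are among these 8 and lend them no support. The count remained at 0 without replicate 3, the double mutant with the most microglia markers.

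Between double mutants and Cnp-Cre Jab1fl/fl, 0 of 9 members were called by edgeR, beside 0% of all genes. Likewise 0 of 9 had an unadjusted p under 0.05, beside 5% of all genes, and DESeq2 called 0 of 9, beside 0.499% of all genes. The median log2 fold change was -0.13. Both comparisons of double mutants share their samples, and both comparisons with WT share the WT samples, so that their fold changes are not independent. With these samples the 95% confidence intervals between the mutants were wide, from -2.99 to 3.52 for Igf1 and from -5.29 to 2.48 for Igfbp6, and they do not show that the 2 genotypes had the same levels.

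**Figure D3:**
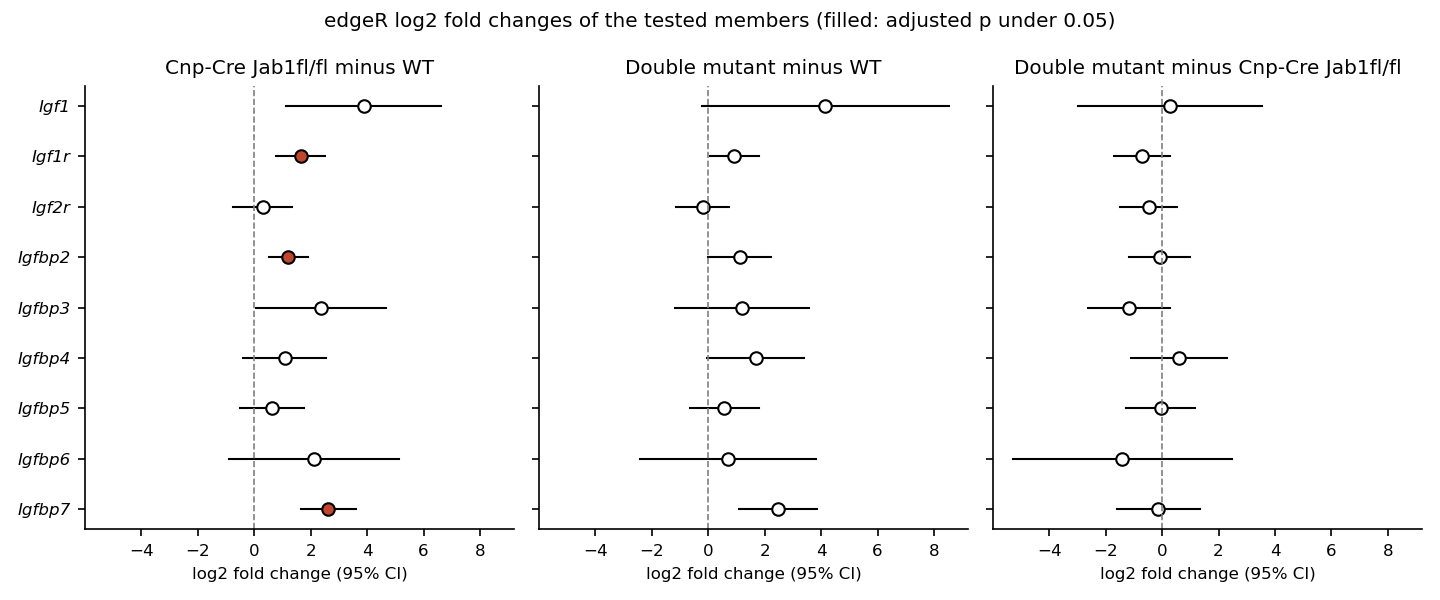
Log2 fold changes (horizontal axis) with 95% confidence intervals of the 9 tested members (vertical axis) from edgeR in the 3 comparisons, with filled points for an adjusted p below 0.05. The 3 filled points, Igf1r, Igfbp2 and Igfbp7, are all in the comparison of Cnp-Cre Jab1fl/fl with WT, and none is in the other 2 comparisons.

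To compare levels between members, CPM was divided by the length of the merged exons of each gene. In WT, Igfbp2 was at 84.9 ± 27.3 CPM per kb and Igfbp7 at 52.2 ± 11.6 CPM per kb, which placed them at percentiles 95.8 and 92.4 of all tested genes. Their ranges over samples overlapped. They were followed at a distance by Igfbp5 at 5.79 ± 3.07, Igf1r at 4.38 ± 1.19, Igf2r at 1.86 ± 0.89, Igfbp4 at 1.62 ± 0.97, Igfbp3 at 1.24 ± 1.29 and Igfbp6 at 1.02 ± 0.55 CPM per kb, each overlapping with the next. The ligands were last, with Igf1 at 0.07 ± 0.09 and Igf2 at 0.03 ± 0.01 CPM per kb, at percentiles 1.6 and 0.9. The value of Igf2 is too low if reads in the bases shared with Gm49394 were not counted. Neighbors in this order were separated beyond the range of their samples only between Igfbp7 and Igfbp5 and between Igfbp6 and Igf1.

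The order changed at the top in the mutants. Igfbp7 led in Cnp-Cre Jab1fl/fl at 321 ± 184 CPM per kb, ahead of Igfbp2 at 197 ± 44.9, and in double mutants at 293 ± 270 ahead of 185 ± 122 CPM per kb, with overlapping ranges in both. Next in Cnp-Cre Jab1fl/fl was Igf1r at 13.7 ± 5.71 CPM per kb, above Igfbp5 at 8.97 ± 5.85. Both ligands stayed at the end of the order in all 3 genotypes.

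Within the pool of the 6 binding proteins, summed as CPM per kb, Igfbp2 and Igfbp7 together made up 93.4% ± 2.5 in WT, 95.4% ± 1.74 in Cnp-Cre Jab1fl/fl and 96.0% ± 0.89 in double mutants. Igfbp7 alone made up 30.2 to 40.9% in the WT samples, 41.4 to 67.0% in Cnp-Cre Jab1fl/fl and 33.1 to 77.8% in double mutants, so that only Cnp-Cre Jab1fl/fl lay wholly above WT. The share of Igfbp2 alone ranged between 51.1 and 65.6% for WT, 27.6 and 52.0% for Cnp-Cre Jab1fl/fl, and 19.4 and 62.2% for double mutants, overlapping throughout. These shares are a description of the levels above and were not tested.

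**Figure D4:**
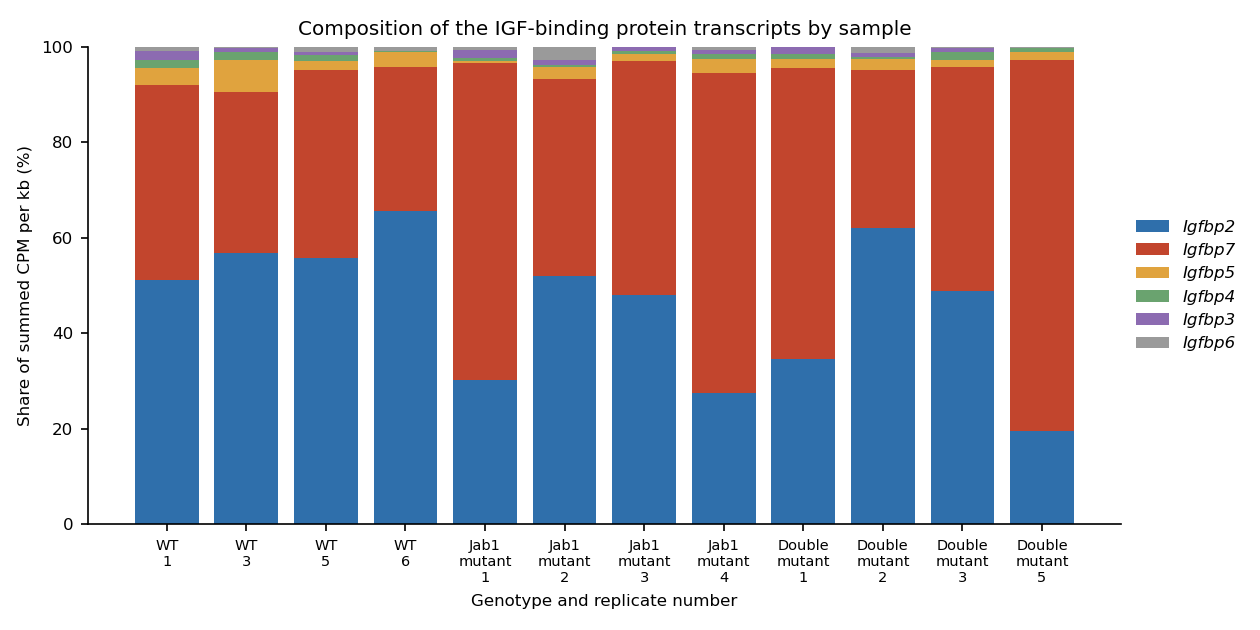
Share of each binding protein gene in the summed CPM per kb of Igfbp2 to Igfbp7 (vertical axis, percent), with 1 bar per sample labelled by genotype (Jab1 mutant is Cnp-Cre Jab1fl/fl) and replicate number. Igfbp2 is at 51.1% or more in the 4 WT samples, and Igfbp7 reaches 77.8% in the double-mutant replicate 5.

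The genes with the most similar profiles to the 3 called members were then read from the Pearson correlation of log2(CPM + 1) over the 12 samples, among all other tested genes. For Igfbp7 they were Cldn5 (r = 0.978), a tight junction protein of brain endothelium, Tgtp1 (0.975), an interferon-induced GTPase, and Grrp1 (0.975). For Igf1r they were Lef1 (0.976), a transcription factor of the WNT pathway, Irf2 (0.974), a regulator of interferon responses, and Ptprb (0.973), the vascular endothelial protein tyrosine phosphatase. For Igfbp2 they were Ptgs1 (0.971), a cyclooxygenase, Ppp1r1b (0.946) and Fcrls (0.946), a gene of microglia. These values describe 12 points that share libraries and genotype differences, and they carry no test.

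Other genes of the pathway, from binding protein proteases to the signaling arms downstream of the receptor, were compared through 63 genes in 6 lists, of which 52 passed the filter. Relative to WT, 1 of 52 in Cnp-Cre Jab1fl/fl was called higher and 2 lower, beside the 5.19% and 2.46% of all genes, with a median log2 fold change of -0.13. Counts this small against that background show nothing particular to these lists. By list, the called genes were 0 of 5 among IGFBP proteases and other IGF binders, 0 of 2 among insulin and its receptors, 1 of 10 among receptor adaptors, 2 of 22 in the PI3K-AKT-mTOR arm, 0 of 10 in the RAS-MAPK arm and 0 of 3 among IGF2 mRNA-binding proteins and imprinted neighbors. In double mutants edgeR called 1 of 52 as compared with WT, beside 0.192% of all genes. Between the mutants it called 0 of 52, beside 0% of all genes, and DESeq2 and limma-voom also called 0, while 1 of 52 had an unadjusted p under 0.05, beside 5% of all genes.

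Eif4ebp1, a translation repressor that mTOR inactivates and a known target of the amino acid stress response, was at 5.70, 4.17, 1.66 and 6.45 CPM in WT, 24.0, 67.0, 23.7 and 66.9 CPM in Cnp-Cre Jab1fl/fl and 55.5, 50.4, 38.5 and 36.5 CPM in double mutants. All samples of both mutants were above WT. The log2 fold change was 3.34 ± 0.55 in Cnp-Cre Jab1fl/fl and 3.32 ± 0.46 in double mutants (edgeR adjusted p = 0.00653 and 0.0404). The first call held without any one of the 8 samples, and the second was kept in 1 of the 8 such fits, the one without double-mutant replicate 1 (adjusted p = 0.0237), and reached 0.142 in the others.

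Gab1, an adaptor that links receptor kinases to PI3K, was at 118, 412, 224 and 131 CPM in WT, 49.5, 72.9, 33.3 and 87.8 CPM in Cnp-Cre Jab1fl/fl and 155, 143, 88.5 and 60.99 CPM in double mutants. Its Cnp-Cre Jab1fl/fl samples were all below WT, with a log2 fold change of -1.86 ± 0.46 (edgeR adjusted p = 0.0323). Rictor, the defining subunit of mTOR complex 2, was at 95.4, 128, 190 and 123 CPM in WT, 65.6, 78.4, 54.7 and 59.4 CPM in Cnp-Cre Jab1fl/fl and 103, 97.5, 52.6 and 73.3 CPM in double mutants. It was likewise below WT in every Cnp-Cre Jab1fl/fl sample, with a log2 fold change of -1.06 ± 0.29 (edgeR adjusted p = 0.049). The call of Gab1 was lost without WT replicate 3 or 5 or Cnp-Cre Jab1fl/fl replicate 1 or 3 (edgeR adjusted p between 0.0721 and 0.0861), and that of Rictor was kept only without Cnp-Cre Jab1fl/fl replicate 2 (adjusted p = 0.0399). In double mutants neither was called as compared with WT (-1.0 ± 0.46 and -0.73 ± 0.32, edgeR adjusted p = 0.409 and 0.381). Insr, the insulin receptor, was singled out after its values were seen as the closest relative of Igf1r, and had 98.7 ± 15.5 CPM in WT and 103 ± 36.8 CPM in Cnp-Cre Jab1fl/fl, with a log2 fold change of 0.06 ± 0.33 (edgeR adjusted p = 0.939), whose 95% confidence interval ran from -0.65 to 0.78.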

How the data were processed

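RNA was from CD45- O1+ live single cells sorted from P40 brains, 2 brains per sample and 4 samples per genotype, and libraries were made with a SMART-Seq kit and sequenced as paired ends. Per the labels and processing notes, the authors used Trimmomatic 0.32 for trimming, STAR 2.5.3a for alignment to GRCm38 and featureCounts for assignment to genes, and deposited raw counts per gene. Whether counting used strand is not given in the sources used here. The deposited table held 55376 symbols, 98.2% of which matched GENCODE M21, the source of the coordinates, lengths and exon overlaps. The authors counted on another GENCODE release, so lengths and overlaps can differ from the gene models behind the counts. The members and all gene and marker lists were chosen with earlier results of these data known.

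The 17716 genes reaching 1 CPM or more in 4 or more libraries were tested with edgeR 4.0.16 (R 4.3.3) using TMM factors and the quasi-likelihood test on the 8 samples of each comparison, with Benjamini-Hochberg adjustment over all genes. CPM used TMM factors from all 12 samples. Genes were named as follows: every member, the targeted genes Cops5 and Cdkn1a, every called gene of the pathway lists, and the 3 genes most like each called member. Insr, the overlapping genes Polr2b and Gm49394, and the markers Ttr, Slco1c1, Ly6c1 and Cnp were named outside this rule, after their values were seen. The alternatives were upper-quartile factors, DESeq2 1.42.0, limma-voom (limma 3.58.1) with sample weights, omitting the filter, requiring a mean CPM of 10 or more, fitting all 12 samples together, a replicate block and leaving out each sample. The pipeline was tested on simulated data. Replicates are separate samples of pooled brains and every replicate pair differed by far more than counting error (lowest chi-square over its degrees of freedom 170). Intervals from 3 counts cover counting error only.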

Additional observations from a re-analysis of the deposited data

Results flagged for a closer look

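Each member and the 3 called pathway genes were searched in each genotype for a sample far from the other 3, and 2 of 39 groups of 4 samples held one, where chance flags about 1 in 20 groups. Igf1 was at 42.0 CPM in the double-mutant replicate 3, as compared with 6.93 CPM in the next sample, a gap of 0.835 of the range of the group, which exceeds the 95% limit of Dixon's test. The same library had the highest sum of microglia markers, 17478 CPM. Igf1r was at 29.8 CPM in WT replicate 5, as compared with 53.6 CPM in the next sample, a gap of 0.837 of the range. The same library had the lowest sum of endothelial markers, 459 CPM.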

How the results depend on the processing

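The count of called members in Cnp-Cre Jab1fl/fl versus WT (3) was 1 with no filter, 0 with the replicate block, and 1 to 3 when 1 sample was left out. In double mutants as compared with WT (0) it was 1 with DESeq2 and 0 to 1 when 1 sample was left out. The count of called pathway genes in Cnp-Cre Jab1fl/fl (3) was 6 with DESeq2, 0 with the block and 1 to 5 when 1 sample was left out, and in double mutants (1) it was 0 with the block and 0 to 1 when 1 sample was left out. Same-numbered samples did not deviate together (r between -0.188 and 0.0833), so the numbers were not taken to pair samples, and the block left 79 genes called in all in Cnp-Cre Jab1fl/fl versus WT.

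Log2 fold changes of members reversed mostly between the mutants, with 11 values when 1 sample was left out and 4 under other settings. In Cnp-Cre Jab1fl/fl versus WT, Igfbp6 was -0.62 with limma-voom. In double mutants as compared with WT, Igf2r was 0.0597 with the replicate block and -0.38 to 0.16 when 1 sample was left out, and Igfbp6 was -1.16 with limma-voom and -0.10 to 1.11 when 1 was left out. Between the mutants, Igf1 was -3.03 with limma-voom, -2.39 with the block and -2.0 to 0.84 when 1 was left out, and Igfbp5 was 0.0077 with limma-voom, 0.36 with the block and -0.47 to 0.51 when 1 was left out. Leaving out 1 sample there gave -0.57 to 0.24 for Igfbp2, -0.22 to 1.01 for Igfbp4 and -0.91 to 0.26 for Igfbp7. The cause was not tested.

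Over all genes, 1354 were called in Cnp-Cre Jab1fl/fl versus WT, 2689 with DESeq2 and as few as 678 when 1 sample was left out. For double mutants as compared with WT the count of 34 became 862 with DESeq2, 21 with no filter, 140 with a mean of at least 10 CPM, 164 with all 12 samples in 1 fit, 8 with the block and 1 to 274 when 1 sample was left out. Between the mutants the count of 0 became 87 with DESeq2, 1 with limma-voom, 5 with a mean of at least 10 CPM and 2 without Cnp-Cre Jab1fl/fl replicate 2. Counts were low for Igf2 (10 to 145 per sample), while the 0 to 6 counts of Igf1, Igfbp3 and Igfbp6 in single samples stood beside 93 or more in another sample of the same genotype.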
